A study of Rattus norvegicus with 14 samples.

Results

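Of 35 listed genes of fatty acid synthesis, triglyceride assembly and lipid droplets, 32 were measured in the liver of rats eating a rosemary extract, among 14506 genes in all. A listed gene was used where the array had a probe annotated with exactly 1 gene symbol, at its brightest probe. Srebf1, Elovl1 and Cidea had no such probe and were not analysed here. The 14 rats were lean Zucker females heterozygous for the fa allele (fa/+), a mutation of the leptin receptor gene, about 15 weeks old by the series title. For 64 days, 7 control rats ate a standard diet and 7 rats ate that diet with the extract, 40% of it carnosic acid, a diterpene of rosemary leaves. The sample labels put the extract at 0.05% of the diet by weight and the series title at 0.5%. Each array is 1 animal. Values are log2 RMA values, so a difference of 1 is a doubling, and levels of different genes are not set against each other because each probe has its own response.

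The liver makes fatty acids from citrate. Citrate leaves the mitochondrion, is split to acetyl-CoA, carboxylated to malonyl-CoA and built into palmitate, which desaturases and elongases then modify. Fatty acids are joined to glycerol phosphate in successive acylation steps, a phosphatase gives diacylglycerol, and diacylglycerol acyltransferases make triglyceride, which is stored in droplets coated by perilipins and CIDE proteins and is broken down by lipases. In liver the synthesis enzymes are known to follow feeding and insulin through SREBP-1c and ChREBP.

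Few of the lipid genes passed the test between diets. Lpin2 and Dgat1, both of triglyceride assembly, rose, Cidec, a droplet protein, fell, and 29 of 32 did not pass an adjusted p of 0.05 (limma, Benjamini-Hochberg over all genes). The 3 calls are 9.38% of the measured members, where 3.15% of all genes were called (2% higher and 1.15% lower). The median log2 fold of the 32 was -0.09, against 0.00 over all genes (-0.00088), with 13 positive and 19 negative. Leaving out control rat 5 moved that median to -0.043, and leaving out extract rat 6 to -0.047. At an unadjusted p under 0.05 there were 4 positive and 7 negative members, or 11 of 32, while 14.8% of all genes reached that level. In 21 members (65.6%) the 95% confidence interval lay within 0.5 on the log2 scale on either side of no change, against 91% of all genes, and in 31 it lay within 1 (all genes 99.1%).

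**Figure D1:**
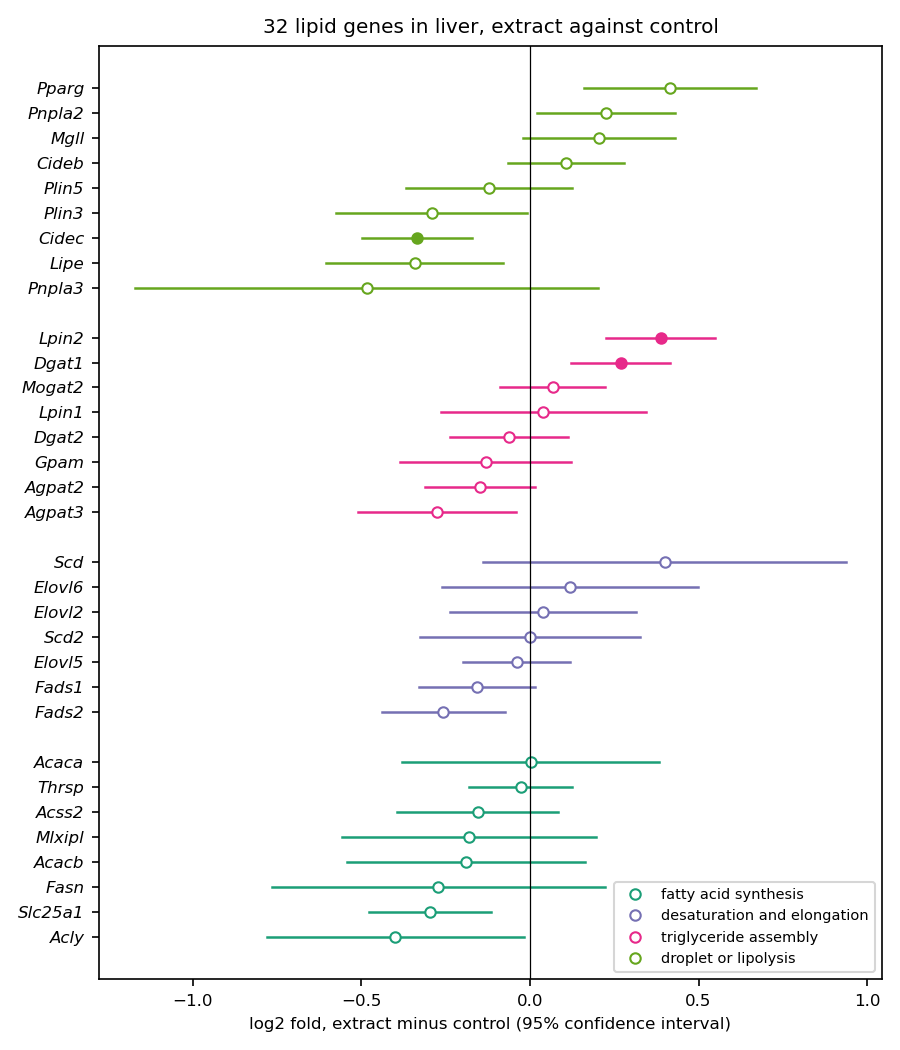
Log2 fold of each of the 32 measured genes, extract minus control, with limma's 95% confidence interval, coloured by role. Filled points passed an adjusted p of 0.05 (Lpin2, Dgat1 and Cidec) and open points did not. Pnpla3, at -0.48, has the widest interval (-1.17 to 0.20).

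The arrays correlated at 0.983 to 0.996 over probes after the normalization, which itself brings arrays together. Their limma weights ran from 0.41 (control rat 1) and 0.463 (extract rat 4) to 2.05 (extract rat 3), and control rat 1 was the lowest control in 11 of the 32 genes. Without control rat 1, members called were 3 higher and 4 lower in place of 2 and 1: Pparg joined the rises, and Slc25a1, Acly and Lipe joined the falls, while over all genes 292 were lower in place of 167. Without both of those rats there were 3 higher and 1 lower, Lpin2, Dgat1 and Pparg on one side and Cidec on the other. Hepatocyte markers (10 of 10 measured) averaged 12.73 to 12.89 in control and 12.72 to 12.83 in extract rats, and none was called. Macrophage markers averaged 8.86 to 9.08 in control and 8.47 to 8.81 in extract rats, all 10 with a negative fold and 2 called lower (Marco and Vsig4). Stellate cell markers averaged 7.24 to 7.57 and 6.94 to 7.33, with 6 of 8 negative and 1 called lower (Pdgfrb, adjusted p = 0.042). Sinusoidal endothelial markers averaged 8.82 to 8.97 and 8.43 to 8.99, with 5 of 5 negative, and red cell markers 7.03 to 7.55 and 6.65 to 7.50, with 4 of 4 negative, and 0 of either list were called. Bile duct markers had 4 of 5 and exocrine pancreas markers 5 of 7 positive, also with 0 called. In total RNA of whole liver, fewer cells of a type and less RNA per cell cannot be told apart, and the part of these markers in the folds below was not tested.

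Triglyceride assembly held both rises. Lpin2 encodes a lipin, a phosphatidate phosphatase that makes diacylglycerol. Its control values were 6.36 at the lowest, 6.40 at the median and 6.49 at the highest rat, and its extract values were 6.52, 6.85 and 7.10. Every extract rat lay above every control rat, and the controls lay very close together. No other member showed such separation, which 1.54% of all genes did. Its mean went from 6.42 ± 0.05 to 6.81 ± 0.19 (SD, n = 7 each), a 1.31-fold rise (log2 fold 0.39 ± 0.08 SE, limma adjusted p = 0.00737). This call held without each rat in turn (adjusted p 0.00164 to 0.020) and was lost when each gene kept its own unequal variances, with no moderation (0.062). Lpin1, its relative, ranged from 8.14 to 9.02 in control and from 8.04 to 9.14 in extract rats, with a log2 fold of 0.04 (95% interval -0.26 to 0.34). The groups of Lpin1 overlapped entirely, and its fold was not tested against that of Lpin2.

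Dgat1 encodes an enzyme of the last step of triglyceride synthesis. Control rats lay at 8.54, 8.73 and 8.83 (lowest, median, highest) and extract rats at 8.80, 9.01 and 9.11. Of the extract rats, 6 of 7 were above all controls. The 1.21-fold rise (8.70 ± 0.12 to 8.97 ± 0.12, SD, n = 7 each; log2 fold 0.27 ± 0.07 SE, limma adjusted p = 0.042) was close to the threshold: it held in 3 of the 14 fits that left out 1 rat (without control rat 1 or extract rat 6 or 7), with adjusted p from 0.028 to 0.10 over all 14. The Dgat1 call was also lost after median centring (limma adjusted p = 0.053), over every probe of the table (0.069) and with an intensity trend (0.082). Unequal variances (0.056) and the rat number as a replicate block (0.12) lost it too. That call held after repeated quantile normalization (0.039) and with array weights (0.021). Dgat2, an unrelated enzyme of the same reaction, had 11.77, 11.89 and 12.13 in control and 11.62, 11.83 and 12.19 in extract rats. Its log2 fold was -0.06 (95% interval -0.24 to 0.11), which did not pass.

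The earlier steps of assembly did not pass. Gpam, the mitochondrial acyltransferase that starts the pathway, had control values of 10.54, 10.99 and 11.41 and extract values of 10.60, 10.78 and 11.05, with a log2 fold of -0.13 (adjusted p = 0.69). Agpat2 and Agpat3, acyltransferases of the next step, had log2 folds of -0.15 (adjusted p = 0.40) and -0.27 (adjusted p = 0.24). Agpat3 passed once control rat 4, its lowest control (9.89), was left out (adjusted p = 0.047). Mogat2, which acylates monoacylglycerol and is known from the intestine, lay between 3.52 and 3.97 in all rats, under 5.10, the median of all probes in controls, where RMA folds are compressed, and had a log2 fold of 0.07. Over the 8 genes of this role the median log2 fold was -0.01.

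**Figure D2:**
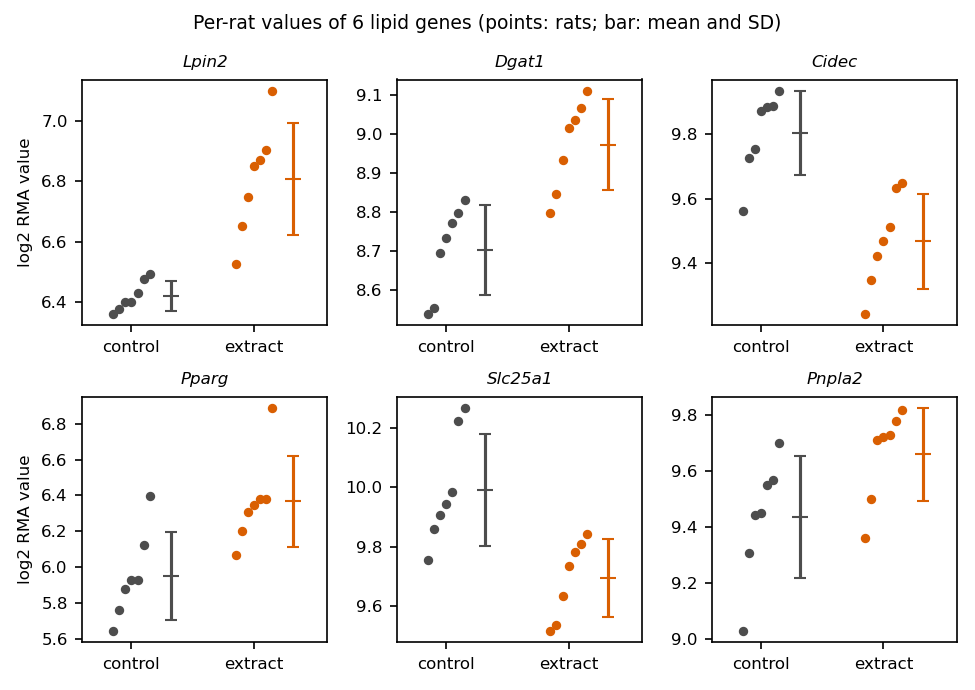
Log2 RMA values of 6 genes in each of 7 control and 7 extract rats, with the mean and SD beside the points. Lpin2 shows no overlap between the groups, Dgat1 and Cidec overlap by a few rats, and Pparg, Slc25a1 and Pnpla2 did not pass (adjusted p = 0.075, 0.072 and 0.28).

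Among droplet and lipolysis genes 1 of 9 measured was called, where 3.15% of all genes were. Cidec encodes a CIDE protein that fuses droplets and enlarges them. Its values were 9.56, 9.87 and 9.93 in control and 9.24, 9.47 and 9.65 in extract rats (lowest, median, highest). In 5 of 7 extract rats Cidec was below all controls. It fell by 0.33 on the log2 scale (9.80 ± 0.13 to 9.47 ± 0.15, SD, n = 7 each; limma adjusted p = 0.022), a level 0.793 times that of controls. The call was lost without extract rat 1 (adjusted p = 0.052) and after median centring (0.055). Its relative Cideb, known for its part in lipoprotein assembly, had 11.06, 11.38 and 11.58 in control and 11.31, 11.45 and 11.71 in extract rats and did not pass (log2 fold 0.11, adjusted p = 0.61).

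Pparg encodes the nuclear receptor PPAR gamma, known to drive Cidec and other storage genes in fat. It had 5.64, 5.93 and 6.40 in control and 6.07, 6.34 and 6.89 in extract rats. Only extract rat 2 lay above all controls, since the highest control was rat 1 (6.40). The log2 fold of 0.42 ± 0.12 (SE) did not pass (limma adjusted p = 0.075). It passed with control rat 1 left out (0.015), with extract rat 4 left out (0.047) and with array weights (0.00968). Its sign was opposite to that of Cidec. Adipocyte markers averaged 5.23 to 5.37 in control and 5.15 to 5.42 in extract rats, and 0 of 10 were called. That average is lifted by Pck1 (means of 11.81 in control and 11.86 in extract rats) and is not a measure of fat cell content. The fat-cell hormones Adipoq and Lep lay under 5.10 in both groups (means of 3.48 and 4.09 in controls, 3.54 and 3.91 in extract rats).

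The lipases had folds of both signs, and none passed. Pnpla2, the triglyceride lipase ATGL, had 9.03, 9.45 and 9.70 in control and 9.36, 9.72 and 9.82 in extract rats, with 5 of 7 above all controls (log2 fold 0.23, limma adjusted p = 0.28). Mgll, which splits monoacylglycerol, had a log2 fold of 0.20 (adjusted p = 0.40). Lipe, the hormone-sensitive lipase, had 6.58, 6.99 and 7.53 in control and 6.35, 6.69 and 6.99 in extract rats (log2 fold -0.34, adjusted p = 0.18, and 0.046 without control rat 1, its lowest control). The droplet coats Plin3 and Plin5 had log2 folds of -0.29 (adjusted p = 0.31) and -0.12 (adjusted p = 0.70).

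Pnpla3, a droplet protein related to ATGL and known to follow feeding, varied more between rats on the same diet than 99.9% of genes. It ranged from 7.17 to 9.71 in control rats and from 7.25 to 9.22 in extract rats, so the log2 fold of -0.48 had an interval of -1.17 to 0.20 and did not pass (adjusted p = 0.55). That interval still includes a fall of 1 on the log2 scale.

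Of the 8 measured fatty acid synthesis genes 0 passed in limma, where 3.15% of all genes did, a share at which 0 of 8 is likely. With unequal variances 0 passed too (over all genes 171 higher and 56 lower). At an unadjusted limma p under 0.05 there were 2, Slc25a1 and Acly (14.8% of all genes). A negative fold was seen in 7 of the 8, and in 7291 of 14506 genes in all. The median log2 fold of the 8 was -0.19 (-0.28 without control rat 1 and -0.11 without control rat 5). Slc25a1, the mitochondrial citrate carrier, had 9.75, 9.94 and 10.27 in control and 9.52, 9.73 and 9.84 in extract rats. In 4 of 7 extract rats it was below all controls, and its log2 fold of -0.30 ± 0.09 (SE) did not pass (limma adjusted p = 0.072), though it did without control rat 1 (0.029) and with array weights (0.049). Its second probe, which was dimmer (mean 6.32), gave -0.12.

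Acly, which splits citrate, had 9.62, 10.59 and 11.06 in control and 9.65, 10.07 and 10.41 in extract rats. The extract rats lay inside the control range. The log2 fold of -0.40 did not pass (limma adjusted p = 0.31) but did without control rat 1 (-0.54, adjusted p = 0.048), the lowest control. Fasn, the fatty acid synthase, spread from 9.54 to 11.22 in control and from 9.49 to 10.55 in extract rats (log2 fold -0.27, adjusted p = 0.67). Acaca, the cytosolic acetyl-CoA carboxylase, had a log2 fold of 0.00 (0.0023, 95% interval -0.38 to 0.38), with a sign that turned in 9 of 25 other fits, and Acacb, its mitochondrial relative, -0.19 (adjusted p = 0.68).

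Mlxipl, which encodes ChREBP, the glucose-responsive activator of these genes, had 9.01, 10.13 and 10.37 in control and 9.36, 9.83 and 10.23 in extract rats. Control rat 1 was far below the other controls, and the log2 fold was -0.18 (adjusted p = 0.72). Acss2, which makes acetyl-CoA from acetate, had a log2 fold of -0.16 (adjusted p = 0.59). Thrsp, a lipogenic protein responsive to thyroid hormone, stayed within 12.40 to 12.90 in all rats, with a log2 fold of -0.03 (95% interval -0.18 to 0.13).

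Desaturation and elongation showed 0 calls in 7 measured genes in limma, where 3.15% of all genes were called, and 0 with unequal variances. At an unadjusted limma p under 0.05 there was 1, Fads2, where 14.8% of all genes reached that level. These counts are near the shares over all genes. The median log2 fold was 0.00 (0.0005). Scd, the liver's stearoyl-CoA desaturase, had 10.69, 11.66 and 12.16 in control and 11.01, 12.22 and 12.52 in extract rats. In 4 of 7 extract rats it was above all controls, while extract rat 5 (11.01) was among the lowest of all, and the log2 fold of 0.40 (95% interval -0.14 to 0.94) did not pass. Scd2 had a log2 fold of 0.00 (0.0005), in which extract rat 2 stood highest (7.48) and without which it was -0.14.

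Fads1 and Fads2, the front-end desaturases of polyunsaturated fatty acids, both had a negative fold. Fads2 had 12.27, 12.44 and 12.82 in control and 12.02, 12.21 and 12.44 in extract rats, with 4 of 7 below all controls (log2 fold -0.26, limma adjusted p = 0.14), and Fads1 had -0.16 (adjusted p = 0.40). The elongases Elovl2 (0.04), Elovl5 (-0.04) and Elovl6 (0.12) had log2 folds close to 0. Elovl6, which lengthens palmitate, spread from 9.98 to 11.24 in control and from 10.04 to 10.88 in extract rats.

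Rats on the same diet differed more in many of these genes than in most genes, but not in all. The median SD within groups was 0.238 over the 32 members and 0.164 over all genes. By role it was 0.377 in fatty acid synthesis, 0.277 in desaturation and elongation, 0.242 in droplet or lipolysis and 0.147 in triglyceride assembly. The SD within groups, pooled over both diets, placed 12 of 32 members among the 10% most variable of all genes, led by Pnpla3 (above 99.9% of genes), Scd (99.7%) and Fasn (99.5%). Fatty acid synthesis held 5 of these 12, desaturation and elongation 4, droplet or lipolysis 2 and triglyceride assembly 1. These are descriptions of spread and carry no test.

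Between rats of one diet, several members went up and down with Fasn. After the group means were removed, the deviations of Fasn over 14 rats were correlated with those of each of the 31 other measured members, with permutation within groups (100000 resamples) and Benjamini-Hochberg adjustment over the 31 pairs. Acly had a Pearson r of 0.96 and Spearman rho of 0.85 (permutation adjusted p = 0.00031 and 0.0071), and Acaca an r of 0.95 and rho of 0.93 (permutation adjusted p = 0.00031 and 0.0012). Acly and Acaca act just before Fasn in palmitate synthesis. Gpam followed with an r of 0.87 and rho of 0.90 (permutation adjusted p = 0.0012 and 0.0021) and Elovl6 with 0.74 and 0.76 (permutation adjusted p = 0.045 and 0.021). Arrays share a normalization, so these points also share that source. Over all other genes the median r with Fasn was 0.01, 0.696% exceeded 0.8, and no gene had a higher r than Acly.

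Agpat2 ran the other way, with an r of -0.87 and rho of -0.87 (permutation adjusted p = 0.00062 and 0.0021). Dgat1 did not pass (r -0.64, rho -0.55, permutation adjusted p = 0.080 and 0.13). For Agpat2 the r was -0.94 within controls and -0.68 within extract rats. Of all other genes 0.972% had an r below -0.8. Control rats 1 and 3 were the lowest controls for Fasn, at 9.54 and 9.75, and extract rat 5 was the lowest extract rat for Fasn, Acly, Acaca and Elovl6. Without control rats 1 and 3, which lay farthest from the median of Fasn, r was 0.90 for Acly, 0.88 for Acaca, 0.74 for Gpam, 0.71 for Elovl6 and -0.66 for Agpat2, and 2 pairs (Acly and Acaca) passed in place of 5. Without control rat 1 alone 8 pairs passed, the same 5 with Scd, Scd2 and Pnpla3.

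**Figure D3:**
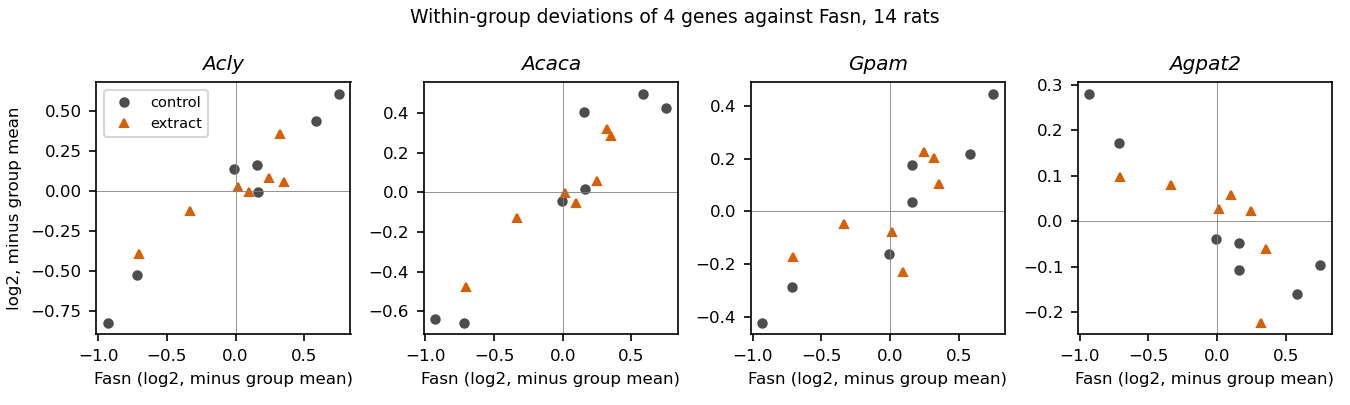
Deviation of Acly, Acaca, Gpam and Agpat2 from their group mean against that of Fasn (both on the log2 scale), 1 point per rat, circles for control and triangles for extract rats. Acly, Acaca and Gpam climb with Fasn (r of 0.96, 0.95 and 0.87) and Agpat2 declines (r of -0.87).

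Promoter sequence was set beside these patterns for 2 genes that went with Fasn (Acly and Gpam) and 2 that were called between diets (Lpin2 and Cidec). Agpat2, which passed with a negative r, had a window too and is not printed, so these genes are examples and not a comparison. Each line gives the 250 bases before the RefSeq gene start, 5′ to 3′ on the gene's strand, build GRCr8, with CCAAT or its reverse complement in capitals. CCAAT is the core of the site of NF-Y, a factor known to act with SREBP at lipogenic promoters.
Acly: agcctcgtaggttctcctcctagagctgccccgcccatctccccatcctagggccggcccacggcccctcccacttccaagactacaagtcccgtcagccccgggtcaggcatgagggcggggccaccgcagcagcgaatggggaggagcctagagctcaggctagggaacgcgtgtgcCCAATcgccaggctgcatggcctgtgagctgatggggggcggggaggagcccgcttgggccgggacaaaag
Gpam: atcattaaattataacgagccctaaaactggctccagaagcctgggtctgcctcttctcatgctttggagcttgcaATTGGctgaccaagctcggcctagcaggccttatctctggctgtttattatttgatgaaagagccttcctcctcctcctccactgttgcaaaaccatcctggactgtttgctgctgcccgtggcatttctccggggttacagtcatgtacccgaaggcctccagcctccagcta
Lpin2: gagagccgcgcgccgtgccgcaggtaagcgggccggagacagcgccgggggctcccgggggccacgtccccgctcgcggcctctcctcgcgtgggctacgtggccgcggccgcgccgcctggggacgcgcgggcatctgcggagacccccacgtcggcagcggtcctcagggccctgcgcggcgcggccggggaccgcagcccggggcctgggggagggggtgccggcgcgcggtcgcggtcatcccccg
Cidec: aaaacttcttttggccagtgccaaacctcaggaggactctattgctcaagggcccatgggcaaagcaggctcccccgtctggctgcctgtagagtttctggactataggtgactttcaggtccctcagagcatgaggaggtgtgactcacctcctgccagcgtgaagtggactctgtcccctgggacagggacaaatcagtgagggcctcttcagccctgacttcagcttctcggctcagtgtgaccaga
The windows are chr10:85963632-85963881, minus strand (Acly), chr1:264175912-264176161, minus strand (Gpam), chr9:118530105-118530354, plus strand (Lpin2) and chr4:148137116-148137365, minus strand (Cidec). Acly has CCAAT starting 71 bases before the gene start and Gpam has its reverse complement 174 bases before it, while the Lpin2 and Cidec windows hold none. The GC share is 82.4% in Lpin2, 68% in Acly, 56% in Cidec and 51.2% in Gpam.

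Windows of 300 bases (250 before to 50 after the start) were searched on both strands. Of the 32 members 25 had a window in the promoter set used, and a gene counted once if any of its windows held the motif. Acaca, Fasn, Elovl6, Mogat2, Dgat1, Dgat2 and Lipe had no window there, so the counts below do not cover them. CCAAT was in 16 of the 25 (64%) and in 39.6% of all genes with a window. The 16 were Mlxipl, Slc25a1, Acly, Acss2, Acacb, Thrsp, Scd2, Fads1, Elovl5, Gpam, Lpin1, Pparg, Plin3, Plin5, Pnpla3 and Mgll. Of these, Acly and Gpam passed in correlation with Fasn. The others did not, with an r from -0.17 (Pparg) to 0.65 (Pnpla3). Agpat2, which passed with a negative r (-0.87), had a window without CCAAT. A link between the motif and correlation with Fasn was not tested. The E-box CACGTG was in 2 of 25 (Elovl5 and Mgll, against 7.08% of genes). The antioxidant response element core TGACNNNGC was in 3 (Acss2, Scd and Gpam, against 13.1%). The sterol regulatory element TCACNCCAC (1.25% of genes) was in 0 of the 25. The exact direct repeats of AGGTCA spaced by 4 bases (LXR, 0.00728% of genes) or by 1 base (PPAR, 0.0619%) were also in 0. At shares this low almost any 25 genes would give 0, so these counts say nothing about the members. A match here is a stretch of letters and was not tested as a binding site.

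Among 65 other measured genes of lipid supply, storage and control, 3 rose, 5 fell and 57 did not pass in limma, or 12.3% called (over all genes 3.15% were called, 2% higher and 1.15% lower), with a median log2 fold of 0.00 (-0.0046). Without control rat 1 there were 8 lower genes, and 3 without control rat 4 or extract rat 1, 3 or 5. Me1, the malic enzyme that yields NADPH for fatty acid synthesis, had 8.90, 9.10 and 9.53 in control and 10.03, 10.39 and 10.75 in extract rats. Ces1d, a carboxylesterase known to hydrolyse triglyceride in liver, had 9.48, 9.71 and 10.14 in control and 10.64, 10.81 and 10.92 in extract rats. Acsm5, a medium-chain acyl-CoA synthetase, had 9.25, 9.30 and 9.57 in control and 9.71, 9.93 and 10.07 in extract rats. All extract rats lay above all controls in these genes, which rose 2.34-fold, 1.98-fold and 1.46-fold (limma adjusted p = 2.28e-06, 6.26e-06 and 0.000186). In 4 of the 65 genes, these and Hsd17b13 (below), the groups did not overlap, against 1.54% of all genes. Ces1d belongs to a family of close copies, and how far its probe separates them was not tested.

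Of the falls, 3 held in limma without each rat in turn. G0s2, an inhibitor of ATGL, had 8.48, 9.09 and 9.57 in control and 7.38, 8.24 and 8.56 in extract rats, and fell by 0.88 on the log2 scale (limma adjusted p = 0.00882), with 4 of 7 extract rats below all controls. Hsd17b13, a liver droplet protein, had 10.08, 10.21 and 10.44 in control and 9.61, 9.83 and 10.03 in extract rats without overlap, and fell by 0.42 (adjusted p = 0.00695). Nr1h3, which encodes the oxysterol receptor LXR alpha that activates Srebf1, had 10.25, 10.42 and 10.71 in control and 10.02, 10.12 and 10.27 in extract rats, and fell by 0.35 (adjusted p = 0.016). LXR alpha is also made by macrophages, whose markers were lower as given above, and the part of macrophages in this fall was not tested. With unequal variances G0s2 and Nr1h3 no longer passed (adjusted p = 0.066 and 0.058).

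The other falls rested on a narrower margin. Angptl8, a secreted inhibitor of lipoprotein lipase known to rise with feeding, had 10.17, 10.47 and 10.75 in control and 9.03, 9.22 and 10.55 in extract rats. In 5 extract rats it was below all controls, while extract rats 2 (10.55) and 7 (10.31) lay among the controls, and it fell by 0.85 (limma adjusted p = 0.035). That call held in 4 of the 14 fits that left out 1 rat (adjusted p 0.0041 to 0.080). Acsl5, a long-chain acyl-CoA synthetase, fell by 0.36 (limma adjusted p = 0.037), and passed in 6 of those 14 fits (adjusted p 0.019 to 0.084). Neither passed with unequal variances (adjusted p = 0.19 for Angptl8 and 0.091 for Acsl5).

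**Figure D4:**
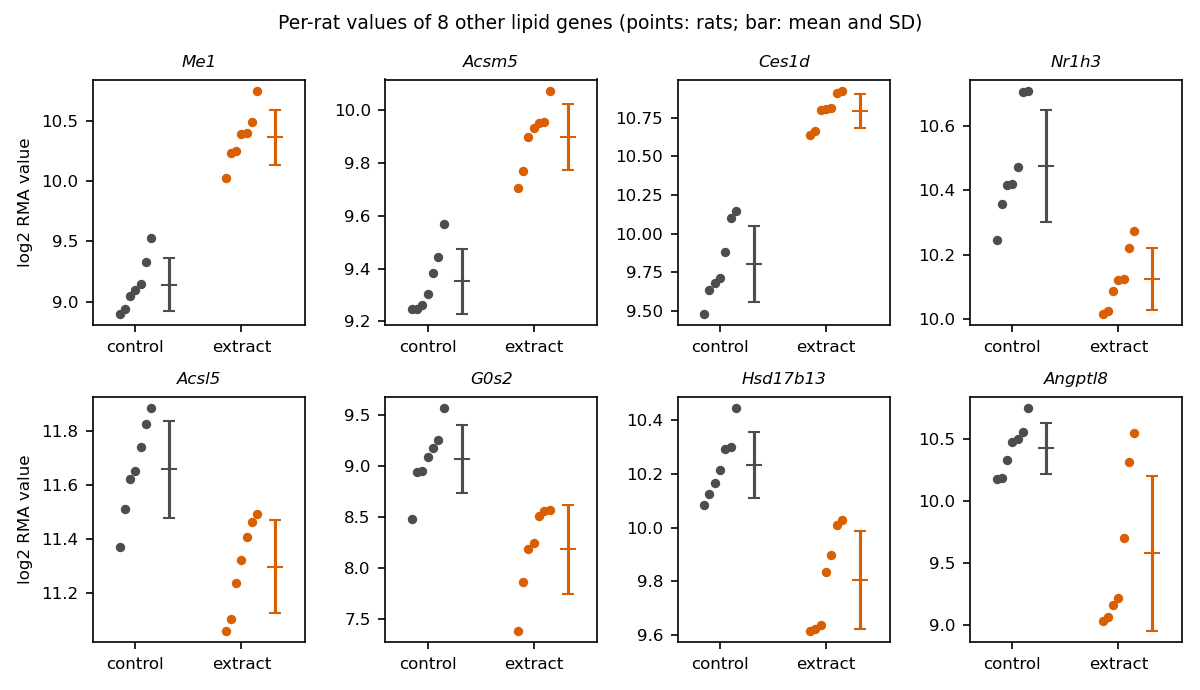
Log2 RMA values of the 8 other lipid genes that passed, in each of 7 control and 7 extract rats, with the mean and SD beside the points. Me1, Ces1d and Acsm5 lie higher and Hsd17b13 lower in all extract rats, while 2 extract rats of Angptl8 lie among the controls.

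Of the 57 others, those with the smallest p were Dbi, the acyl-CoA binding protein (log2 fold -0.47, limma adjusted p = 0.060), Hsd17b11, a droplet dehydrogenase (0.22, adjusted p = 0.071), Ppard, the receptor PPAR delta (-0.45, adjusted p = 0.074), Cd36, the fatty acid transporter (0.48, adjusted p = 0.077), Acsl4 (0.26, adjusted p = 0.091) and Fabp1, the liver fatty acid binding protein (-0.18, adjusted p = 0.10). Ppard passed without control rat 1 or 6 (lowest adjusted p = 0.015) and Cd36 without control rat 1 (0.013), and Dbi passed without control rat 2 or 5 or extract rat 6 (adjusted p down to 0.037). Fabp1 passed with unequal variances (0.037). Both probes of Cd36 had like folds (0.48 and 0.49).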

How the data were processed

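Total liver RNA of 14 rats was labelled with a whole-transcript Affymetrix protocol, per the labels' protocols. For 29215 probes the authors deposited log2 RMA values, computed with RMA and Affymetrix Expression Console 1.1.2 per the submitters' processing notes; options and genome build are not given in the sources used here. The log2 scale was read from the range of values (1.95 to 14.0).

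Gene names came from GEO's platform annotation (15310 with exactly 1 symbol, 323 with several, 13582 unnamed), the brightest probe per gene was kept, and 14506 genes were compared with limma 3.58.1 in R 4.3.3 (lmFit and eBayes, two-sided, no covariate, Benjamini-Hochberg over all genes, threshold 0.05). No filter on dim probes was used. Precision is set by 7 arrays per group. The members, lists and alternatives were chosen with earlier results of these data known. All 35 members are named, and of the other lipid genes all that passed and the 6 of smallest p that did not. The limma and unequal-variance tests between diets were checked on simulated data with equal spread in both groups. The permutation test of correlation was not checked in this way. Promoters are from RefSeq (GRCr8). Python 3.11.15, SciPy 1.17.1 and matplotlib 3.10.9 were used.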

Additional observations from a re-analysis of the deposited data

Results flagged for a closer look

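Among 46 named lipid genes, each looked at in both diets (92 groups of 7 rats), 2 groups held a rat that stood apart, meaning that its gap to the nearest other rat exceeded 0.568 of the whole range. Chance alone gives about 1 such group in 20, a higher share than the 2 of 92 found. Mlxipl, which encodes ChREBP, was 9.01 in control rat 1, and the gap was 0.676 of the range. Pparg was 6.89 in extract rat 2, with a gap of 0.618 of the range.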

How the results depend on the processing

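The 32 member folds were recomputed under 25 other settings (796 values). In 746 of them the direction and the side of the threshold held, 19 lost a call, 9 gained one and 22 changed sign, all of the latter in genes that did not pass (Acaca, Thrsp, Scd2, Elovl2 and Lpin1). Without 1 rat in turn these log2 folds ran from -0.11 to 0.085 for Acaca, -0.075 to 0.0077 for Thrsp, -0.14 to 0.10 for Scd2, -0.037 to 0.11 for Elovl2 and -0.062 to 0.13 for Lpin1. The fold of Acaca was also -0.0046 after repeated quantile normalization, -0.011 with array weights and -0.10 without the 2 arrays of lowest weight, a setting added after the data had been seen. Members called higher were 2, and were 1 after median centring, over every probe of the table, with an intensity trend and with the rat number as a replicate block, and 0 with unequal variances. Members called lower were 1, and were 0 after median centring and 2 with array weights or at an adjusted p of 0.1. Without 1 rat in turn, 1 to 3 members were higher and 0 to 4 lower. Of the other lipid genes, 3 were called higher, with 5 under array weights and 6 at an adjusted p of 0.1, and 3 to 4 without 1 rat. There 5 were lower, with 3 after median centring and over every probe, 8 under array weights and 2 with unequal variances, and 3 to 8 without 1 rat. Over all genes 290 were higher and 167 lower. Those higher were 171 with unequal variances, and those lower were 262 under array weights, 56 with unequal variances, 291 at an adjusted p of 0.1 and 116 to 292 without 1 rat. Control and extract rats share numbers 1 to 7, but the numbers were not taken as pairs: same-numbered rats had deviations correlated from -0.46 to 0.28, and 2 of 7 control rats correlated best with the extract rat of their number. With that replicate block, 235 genes were higher and 129 lower, and Dgat1, Nr1h3 and Acsl5 lost their calls (adjusted p = 0.12, 0.067 and 0.059). Without 1 rat in turn the median log2 fold ran from -0.12 to -0.043 over all members, -0.28 to -0.11 for fatty acid synthesis, -0.061 to 0.033 for desaturation and elongation, -0.064 to 0.017 for triglyceride assembly and -0.18 to -0.052 for droplet or lipolysis genes. Pairs of members that correlated with Fasn were 4 positive and 1 negative, 7 and 1 without control rat 1 (added after the data had been seen), and 2 and 0 without the 2 rats farthest from the median of Fasn. The cause of these moves was not tested. RMA compresses folds of dim genes such as Mogat2.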
